A study of Mus musculus with 12 samples.

Results

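Leukaemia cells from the spleens of LN3 mice were compared with normal thymocytes. The comparison took the 3 raw-count columns of LN3 spleen and the 3 of wild-type (WT) thymocytes, 6 of the 12 libraries of the study, and all 20897 of 54351 genes that passed a filter on low counts. The LN3 mice carried the transgene that the labels call LN3 tg on the C57BL/6 strain and were overtly sick with T-cell acute lymphoblastic leukaemia (T-ALL). The WT mice were C57BL/6 and free of tumour. Both organs were dissociated mechanically on ice and the labels name no sort of these cells, so the LN3 spleen libraries can hold other spleen cells. The other libraries, 3 of LN3 thymus and 3 of WT CD8+ T cells enriched from spleen, entered the same fit and are used here only for reference. The sources used here do not give the genes in the transgene, the promoter that drives it or the ages of the mice, and no gene could serve as a check of the genotype. Nor do the labels say that the libraries of a group came from separate mice, and part of the library-to-library spread on which each p-value rests may be technical.

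T-ALL is a cancer of immature T cells. In the thymus, precursors that lack CD4 and CD8 first answer to Notch ligands, rearrange a T-cell receptor beta chain and divide. They then become CD4+CD8+ (double-positive) cells, which make up most of a normal thymus, express the recombinase genes Rag1 and Rag2 and die unless their receptor is selected. Notch1 is a receptor that, once bound and cut by gamma-secretase, releases a fragment which joins the DNA-binding protein RBPJ and switches on Hes1, Dtx1, Myc and other genes. Myc in turn drives the making of ribosomes and cell growth. In T-ALL these early programmes are often active outside their normal window, and the cells leave the thymus for blood, marrow and spleen.

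Total counts were 14341613, 35852952 and 21457736 in LN3 spleen 1, 2 and 3 and 12820498, 12694571 and 13592535 in WT thymocytes 1, 2 and 3. Levels are CPM, counts scaled to a common library size with TMM factors, which align the libraries on the bulk of their genes. The T-lineage genes Cd3e, Cd3g, Thy1, Lck, Trbc1 and Trbc2 were expressed in all 6 libraries, with Cd3e between 395 and 734 CPM. A set of 5 features grouped here as rRNA-like took 7.64 to 15.7% of counts in LN3 spleen, 2.5% and 1.52% in WT thymocytes 1 and 2 and 8.75% in WT thymocytes 3. WT thymocytes 3 also stood apart in GC content: its levels rose by 1.05 (log2) per 10% of GC, against -0.256 to 0.181 in the other 11 libraries. Mitochondrial transcripts took 2.52 to 2.82% of counts in LN3 spleen and 0.937 to 1.7% in WT thymocytes. Their share was 2.12 to 2.82% in LN3 thymus and 2.18 to 2.55% in WT CD8 cells, so WT thymocytes were the low group. Xist, made from the inactive X of females, was high in LN3 spleen 2 and 3 and in WT thymocytes 2 only, so both groups held mice of either sex and neither came from 1 mouse alone. The part of these differences in the results below was not tested beyond the refits given there.

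Of the 20897 genes tested, 2365 were higher in LN3 spleen and 1781 lower than in WT thymocytes at an adjusted p below 0.05 (edgeR quasi-likelihood test), 11.3% and 8.52% of genes, and these shares are the background for every list below. A change of at least 2-fold was seen in 2125 of the higher and 1583 of the lower genes. For 2266 of the higher and 1676 of the lower genes, the 3 LN3 spleen libraries did not overlap the 3 WT thymocyte libraries. Over all 20897 genes tested, called or not, 3855 were higher and 3428 lower in LN3 spleen without overlap. Most called genes did not overlap, so a lack of overlap given below adds little to a call. The median log2 difference over all genes was -0.07. Scaling by library totals or upper quartiles brought that median to -0.41 and -0.32 (a median shift per gene of -0.346 and -0.256) and the share of higher genes among the calls from 57.04% to 33.45% and 38.87%. No gene called and named below turned its direction under these scalings. The counts fell to 1302 higher and 796 lower without LN3 spleen 3, to 1020 and 910 without WT thymocytes 1 and, for the higher genes, to 1317 without WT thymocytes 2. Leaving out WT thymocytes 3 gave 3184 and 2634, and taking the share of the rRNA-like features as a covariate gave 1558 and 1557. WT CD8 cells also differed from WT thymocytes, with 1513 genes higher and 1774 lower, so a difference below need not be particular to the leukaemia. Cblb, Mxd4 and Ccnd3 changed likewise in WT CD8 cells and were not called between LN3 spleen and WT CD8 cells (adjusted p = 0.373, 0.959 and 0.65). Between those groups, 3740 genes were higher and 2713 lower in LN3 spleen. The bar chart of lists sets the shares of called members beside the background.

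**Figure D1:**
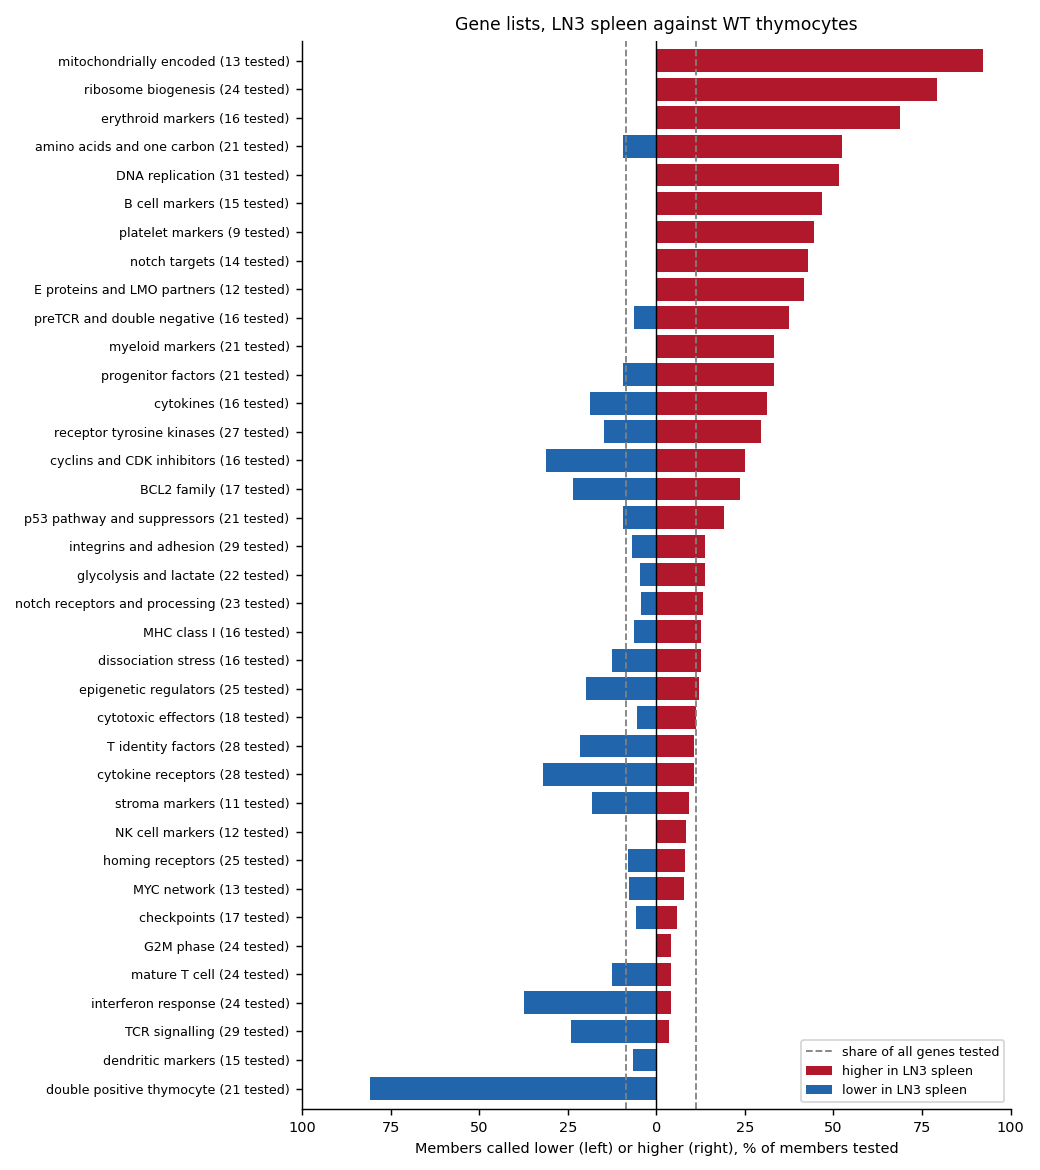
Bars show, for 37 gene lists, the percentage of tested members called higher (right, red) or lower (left, blue) in LN3 spleen than in WT thymocytes, with the number tested in brackets. Dashed lines mark the shares among all genes tested, 11.3% higher and 8.52% lower. Ribosome biogenesis (19 of 24 higher) and double-positive thymocyte genes (17 of 21 lower) lie far past the lines, and G2M phase (1 of 24) lies inside them.

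The genes that mark double-positive thymocytes were far lower in the splenic leukaemia. Of 21 such genes, 17 fell and 0 rose, against 8.52% and 11.3% of all genes, with a median log2 difference of -2.39. Cd4, the co-receptor for class II molecules (GRCm38 6:124864692-124888221), was at 13.9, 20.7 and 6.95 CPM in LN3 spleen and 1042, 777 and 1544 CPM in WT thymocytes. The mean level was 80.8-fold lower, a log2 difference of -6.33 ± 0.90 (SE; adjusted p = 0.00087). Every LN3 spleen library therefore sat far below every WT thymocyte library. Cd8a, the class I co-receptor, was at 235, 143 and 154 CPM against 1522, 1387 and 2625 CPM (-3.38 ± 0.43 in log2, adjusted p = 0.000456). Rag1, which cuts receptor genes for rearrangement, was at 235, 112 and 427 CPM against 5316, 4380 and 4916 CPM (-4.24 ± 0.76, adjusted p = 0.00328). Rag1 thus remained above 100 CPM in each leukaemia library while lying 18.9-fold below the WT mean, and in WT CD8 cells it was at 1.64, 4.62 and 0.591 CPM. Tdrd5, a gene with high expression at this stage, was at 11.8, 2.87 and 4.78 CPM against 166, 169 and 175 CPM (-4.74 ± 0.72, adjusted p = 0.00127). All these groups were apart without overlap.

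The loss was not of equal size along the list. Dntt, the enzyme that adds bases at receptor joints, fell by 1.37 on the log2 scale, from 1066, 999 and 1844 to 628, 645 and 236 CPM (adjusted p = 0.0248), but not past the threshold without LN3 spleen 3 or WT thymocytes 3 (adjusted p = 0.0539 to 0.0703). Cd24a, a surface protein of immature cells, was at 495, 277 and 783 CPM against 150.1, 134 and 177 CPM and did not pass the test (1.75 ± 0.75, adjusted p = 0.112). Rag2, the partner of Rag1, was at 13.1, 3.33 and 46.8 CPM against 166, 187 and 70.4 CPM (-2.75 ± 0.90, adjusted p = 0.0484), a call lost without LN3 spleen 1 or 2 or WT thymocytes 1, 2 or 3 (adjusted p = 0.0529 to 0.13). Dntt, Cd24a and Rag2 were picked after their values were seen. In bulk RNA, fewer cells of a type and less RNA per cell cannot be told apart, so these values do not say whether each leukaemia cell or only some had lost a gene.

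**Figure D2:**
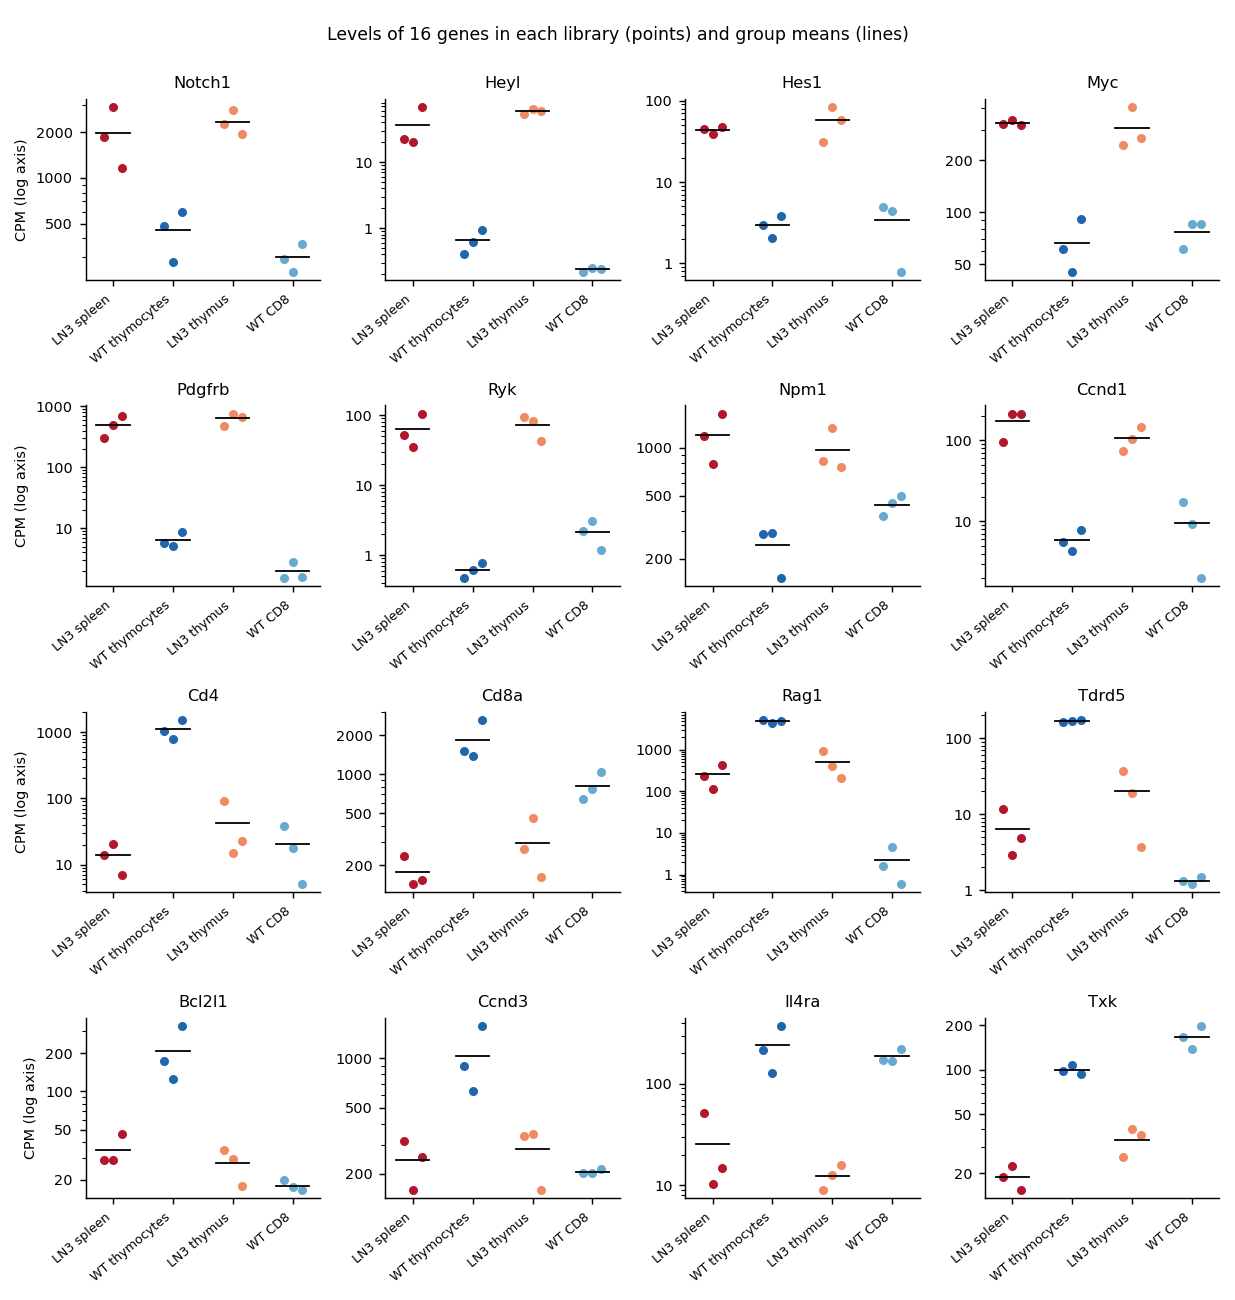
Each panel shows one gene, with CPM on a log axis and 1 point per library in LN3 spleen, WT thymocytes, LN3 thymus and WT CD8 cells; black lines are group means. The upper 8 genes were higher and the lower 8 lower in LN3 spleen than in WT thymocytes in every library, and the LN3 thymus points lie near the LN3 spleen points in most panels.

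Notch1 and 6 of 14 tested Notch targets were higher. Notch1 (GRCm38 2:26457903-26516663) was at 1857, 2908 and 1156 CPM in LN3 spleen and 483, 279 and 599 CPM in WT thymocytes, without overlap. The mean rose 4.35-fold (2.12 ± 0.39, adjusted p = 0.00349), and with WT thymocytes 3 as the lone WT library the adjusted p was 0.0511. Of 23 tested genes for receptors, ligands and processing, 3 rose and 1 fell, near the background, with a median log2 difference of -0.25. The others that passed were Notch3 (1.32 ± 0.40, adjusted p = 0.037), the co-activator Maml3 (1.23 ± 0.31, adjusted p = 0.0171) and, lower, its relative Maml2 (-1.31 ± 0.32, adjusted p = 0.0141). Notch3 was at 205, 433 and 252 CPM against 122, 80.7 and 155 CPM, and its call was lost without LN3 spleen 2 or 3 or WT thymocytes 1 or 2 (adjusted p = 0.0681 to 0.122). The call of Maml3 was lost without LN3 spleen 2 or WT thymocytes 1 or 2 (adjusted p = 0.0572 to 0.0646) and that of Maml2 without LN3 spleen 3 or WT thymocytes 1 (adjusted p = 0.0637 to 0.0722), and 5 genes rose without WT thymocytes 3. Of the 14 targets 9 had positive log2 differences, the lowest was at -1.84 and none was called lower. Their median log2 difference was 1.14, and leaving out any 1 library left 4 to 6 of them called higher. With library totals or upper quartiles as scaling, 4 were called higher and 1 lower.

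Heyl, Dtx1 and Hes1 were the targets of largest rise. Heyl, of the Hey family of repressors, was at 22.7, 20.5 and 67.4 CPM in LN3 spleen and 0.405, 0.613 and 0.946 CPM in WT thymocytes (5.83 ± 0.53, adjusted p = 4.36e-05). Hes1, the classic Notch-induced repressor, was at 44.6, 39.4 and 47.1 CPM against 2.97, 2.02 and 3.79 CPM (3.90 ± 0.60, adjusted p = 0.00132). Dtx1, a ubiquitin ligase that acts on Notch, was at 339, 469 and 605 CPM against 27, 15.9 and 48.9 CPM (3.95 ± 0.45, adjusted p = 0.000217). For all 3 genes the lowest LN3 spleen library was several times the highest WT thymocyte library. In WT CD8 cells Dtx1 was at 228, 181 and 343 CPM, also higher than in WT thymocytes (3.04 ± 0.43, adjusted p = 0.000594). LN3 spleen was not called different from WT CD8 cells for Dtx1 (0.91 ± 0.40, adjusted p = 0.0982). For Heyl and Hes1 it was higher than WT CD8 cells (7.23 ± 0.56 and 3.70 ± 0.59, adjusted p = 5.06e-06 and 0.000721). Myc and Igf1r are described below, and Shq1, a factor for small nucleolar RNAs, rose least (0.81 ± 0.26, adjusted p = 0.0473), a call lost without LN3 spleen 1 or 3 or WT thymocytes 1 or 2 (adjusted p = 0.0952 to 0.176). Other targets did not move with these. Ptcra, the pre-receptor alpha chain, was at 24.9, 3.68 and 24.7 CPM against 25.7, 14.8 and 41.7 CPM (-0.63 ± 0.78, adjusted p = 0.574), so the groups overlapped. Il2ra was at 41.2, 42.5 and 352 CPM against 52.9, 39.6 and 58 CPM (adjusted p = 0.135), and Nrarp, a feedback inhibitor of Notch, at 3.58, 4.43 and 45.2 CPM against 4.59, 3.37 and 8.17 CPM (adjusted p = 0.204). Both were high only in LN3 spleen 3. Without that library their log2 differences turned to -0.26 and -0.42. Il2ra, Nrarp and Shq1 were named after their values were seen.

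Myc and the genes of ribosome production were higher. Myc (GRCm38 15:61985391-61990374) was at 322, 342 and 318 CPM in LN3 spleen and 61.1, 45.4 and 92 CPM in WT thymocytes, a 4.94-fold higher mean (2.31 ± 0.30, adjusted p = 0.000516). The leukaemia libraries were nearly equal and all above every WT library. Among 13 genes of the Myc network 1 other passed (4 were lower with library totals or upper quartiles as scaling): Mxd4, an antagonist that shares Myc's partner Max, was at 132, 199 and 78.1 CPM against 508, 345 and 715 CPM (-1.94 ± 0.36, adjusted p = 0.00359). Of 24 nucleolar factors, 19 rose and 0 fell, against 11.3% and 8.52% of all genes, with a median log2 difference of 1.29. Npm1, the abundant nucleolar chaperone, was at 1182, 787 and 1647 CPM against 288, 289 and 152 CPM (2.31 ± 0.37, adjusted p = 0.00163). Gnl3, nucleostemin, was at 119, 127 and 243 CPM against 36.5, 41.6 and 23.2 CPM (2.27 ± 0.34, adjusted p = 0.00112). Nop58, a core protein of small nucleolar particles, was at 209, 170.3 and 336 CPM against 69.3, 69.5 and 35.8 CPM (2.03 ± 0.34, adjusted p = 0.00221). None of the 3 overlapped between groups, and WT thymocytes 3 was the lowest library for each. The list's count was 11 without LN3 spleen 3, 8 without WT thymocytes 1, 12 without WT thymocytes 2 and 12 with the rRNA-like covariate.

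Myc binds the E-box CACGTG, which reads the same on both strands. RefSeq promoter windows (build GRCm38.p6, 250 bases before to 50 after a start) matched 20 of the 24 nucleolar genes, and 5 of these, 25% of the genes matched, held a CACGTG. Of all 27025 genes with such a window, 8.09% did. Of the 16 matched nucleolar genes called higher, 4 held a CACGTG, the same share as among all 20 matched. The stretches around the E-box in these 4 genes are shown because they and Myc were all higher in LN3 spleen than in WT thymocytes, with the E-box in capitals.
Nop2, chr6:125131811-125131840 (+): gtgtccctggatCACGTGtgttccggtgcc
Wdr43, chr17:71616220-71616249 (+): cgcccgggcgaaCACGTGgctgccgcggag
Mybbp1a, chr11:72441355-72441376 (+): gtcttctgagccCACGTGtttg
Utp20, chr10:88826765-88826789 (-): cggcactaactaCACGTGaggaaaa
The E-box began 60 bases before the start in Nop2 and lay 18, 41 and 38 bases into the transcript in Wdr43, Mybbp1a and Utp20. Wdr43, a factor of the small subunit processome, was at 175, 177 and 294 CPM in LN3 spleen and 66.3, 63.4 and 41.3 CPM in WT thymocytes (1.92 ± 0.28, adjusted p = 0.000927). The log2 differences of Mybbp1a, Utp20 and Nop2 were 1.56 ± 0.34, 1.36 ± 0.23 and 1.18 ± 0.32 (adjusted p = 0.00883, 0.00212 and 0.0248). The call of Nop2 was lost without LN3 spleen 3 or WT thymocytes 1 or 2 (adjusted p = 0.0963 to 0.114) and that of Mybbp1a without WT thymocytes 1 (adjusted p = 0.0534). A match describes these letters and is not evidence of binding. Windows matched only 11 of the 16 Notch targets, under the 80% set as a minimum, so no share with the RBPJ core TGGGAA is given.

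Genes of DNA replication were higher: of 31 tested, 16 rose and 0 fell, with a median log2 difference of 1.09. Orc1, of the origin recognition complex, was at 34.4, 27.7 and 62.2 CPM in LN3 spleen and 11.9, 13.9 and 15.3 CPM in WT thymocytes (1.60 ± 0.46, adjusted p = 0.0291), and Pola1, the catalytic subunit of polymerase alpha, at 151, 116 and 195 CPM against 57, 73.5 and 13.9 CPM (1.68 ± 0.49, adjusted p = 0.0323). For both, LN3 spleen 3 was the highest leukaemia library. The count of 16 was 6 without LN3 spleen 1, 2 without LN3 spleen 3, 2 without WT thymocytes 1, 4 without WT thymocytes 2, 7 with library totals as scaling and 8 with the rRNA-like covariate. The calls of Orc1 and Pola1 were lost without LN3 spleen 3 or WT thymocytes 1 or 2 (adjusted p = 0.0807 to 0.132) and without LN3 spleen 1 or 3 or WT thymocytes 1 (adjusted p = 0.0552 to 0.108). All 24 genes of G2 and mitosis had positive log2 differences, with a median of 0.93, but only Mad2l1, of the spindle checkpoint, passed (1.10 ± 0.32, adjusted p = 0.0296), and not without LN3 spleen 3 or WT thymocytes 1 (adjusted p = 0.104 to 0.139). The number was 2 without LN3 spleen 2 or WT thymocytes 2, 3 without WT thymocytes 3 and 5 by DESeq2. Mki67, picked after its values were seen, was at 1392, 1593 and 2169 CPM against 865, 1002 and 179.6 CPM (1.33 ± 0.57, adjusted p = 0.115). Against WT CD8 cells, which divide little, all 24 mitosis genes and all 31 replication genes were higher in LN3 spleen, where 17.9% of all genes were higher and 13% lower.

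**Figure D3:**
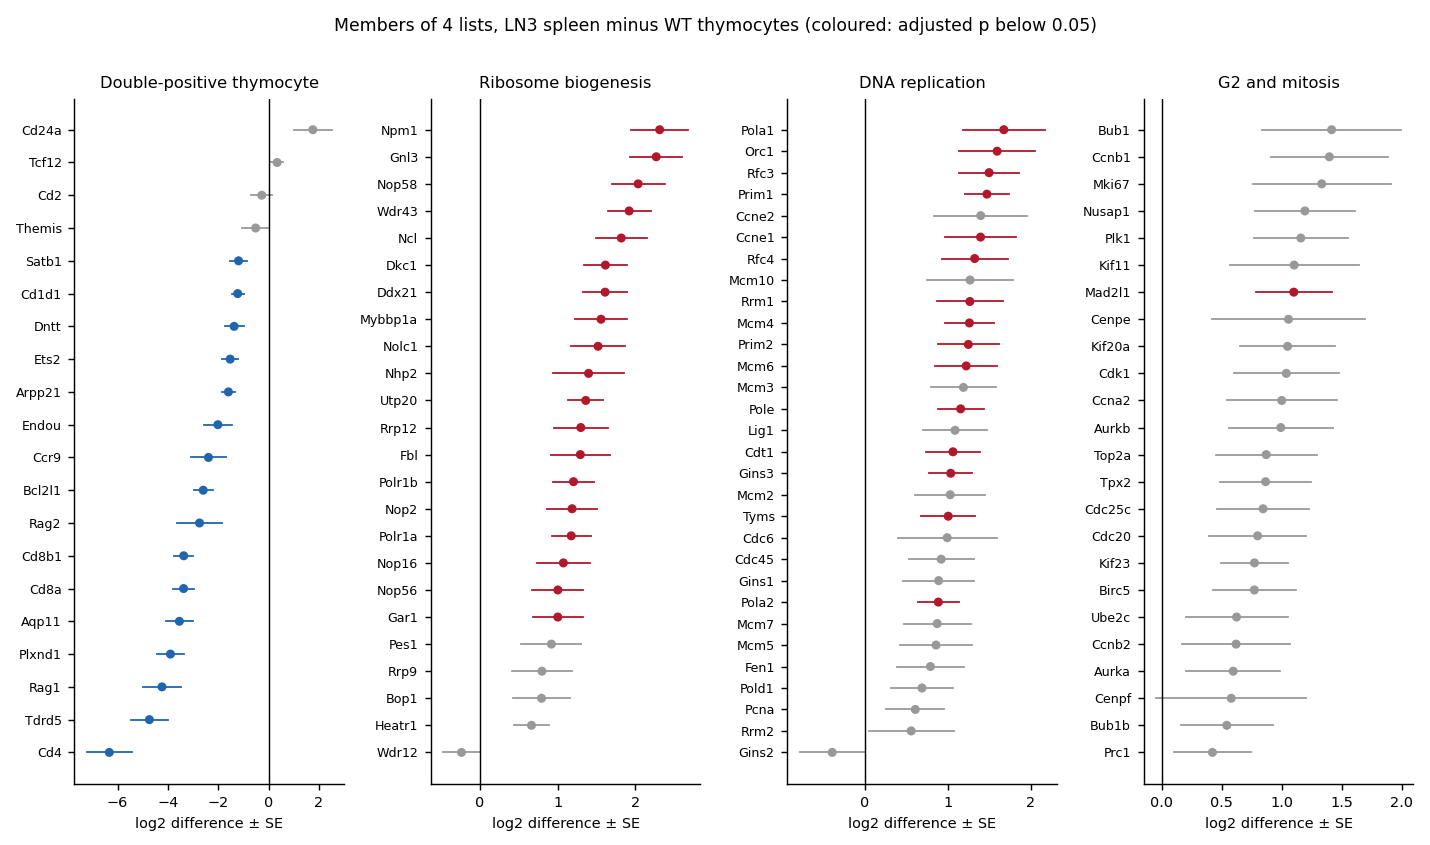
Points show the log2 difference of LN3 spleen minus WT thymocytes for tested members of 4 lists, with bars of 1 SE; red and blue mark members called higher and lower at an adjusted p below 0.05 and grey the others. Cd4 lies lowest among the double-positive genes at -6.33, Npm1 heads the ribosome biogenesis genes at 2.31, and 23 of 24 mitosis genes are grey although all lie above 0.

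The D cyclins moved in opposite directions. Ccnd1 was at 95, 208 and 213 CPM in LN3 spleen and 5.61, 4.29 and 7.83 CPM in WT thymocytes (4.87 ± 0.67, adjusted p = 0.000741). Ccnd3, the main D cyclin of dividing thymocytes, was at 318, 159 and 252 CPM against 894, 634 and 1570 CPM (-2.09 ± 0.40, adjusted p = 0.00432), and Ccnd2 at 55.7, 25.7 and 30.8 CPM against 172, 166 and 292 CPM (-2.49 ± 0.37, adjusted p = 0.00103). No library of one group reached the other for any of the 3. Cdkn2a, the locus of the tumour suppressors INK4A and ARF (GRCm38 4:89274471-89294653), was at 7.24, 2.49 and 7.17 CPM against 0.135, 0 and 0.086 CPM (6.20 ± 0.86, adjusted p = 0.000722). It was thus present in all 3 leukaemia libraries, with a count ratio of 66.1 (95% counting interval 22.4 to 322). Its neighbour Cdkn2b rose as well (2.94 ± 0.84, adjusted p = 0.0287), except without LN3 spleen 1 or 2 or WT thymocytes 1 or 2 (adjusted p = 0.0592 to 0.111). Cdkn1b, which encodes p27 and was picked after its values were seen, fell from 216, 187 and 171 to 79.9, 83.2 and 66.4 CPM (-1.32 ± 0.22, adjusted p = 0.00216). Cdkn2d fell too (-1.59 ± 0.40, adjusted p = 0.0167), but not past the threshold without LN3 spleen 2 or 3 (adjusted p = 0.0508 to 0.057). Of the 16 genes of the list, 4 rose and 5 fell, with Rbl1, the RB relative p107, higher (0.86 ± 0.26, adjusted p = 0.0377) and E2f2 lower (-1.57 ± 0.41, adjusted p = 0.0209). The call of Rbl1 was lost without LN3 spleen 3 or WT thymocytes 1 or 3 (adjusted p = 0.0518 to 0.153) and that of E2f2 without LN3 spleen 2 or WT thymocytes 3 (adjusted p = 0.0534 to 0.0694). Without WT thymocytes 1 the number that rose was 2, and without LN3 spleen 2 the number that fell was 3.

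Among 21 p53 targets and T-ALL suppressors, 4 rose and 2 fell. Sesn1, a p53 target that restrains growth signalling, was at 54.4, 43.8 and 36.2 CPM in LN3 spleen and 95.6, 93.3 and 123 CPM in WT thymocytes (-1.21 ± 0.23, adjusted p = 0.0041), and Mdm2, the p53 ligase, at 44.5, 56.8 and 51.1 CPM against 109.5, 109 and 81.2 CPM (-0.98 ± 0.23, adjusted p = 0.0118). Both were lower in every leukaemia library. Etv6, a repressor, rose (1.32 ± 0.29, adjusted p = 0.00897). Pmaip1, the p53-induced death gene NOXA, was at 16.6, 39.99 and 1.37 CPM against 2.57, 2.76 and 1.29 CPM, with LN3 spleen 3 inside the WT range (3.12 ± 0.90, adjusted p = 0.0298), and Ccng1 at 90.2, 100.5 and 260.2 CPM against 67, 67.2 and 29 CPM (1.47 ± 0.41, adjusted p = 0.0273). Calls were lost without LN3 spleen 1 or WT thymocytes 1 (adjusted p = 0.052 to 0.0538) for Mdm2, without WT thymocytes 1 (adjusted p = 0.0503) for Etv6, without LN3 spleen 2 or WT thymocytes 1, 2 or 3 (adjusted p = 0.0734 to 0.104) for Pmaip1 and without LN3 spleen 3 or WT thymocytes 1 or 3 (adjusted p = 0.0509 to 0.144) for Ccng1. The number that rose was 2 without LN3 spleen 3 and 1 without WT thymocytes 1, and the number that fell was 1 without LN3 spleen 1 or WT thymocytes 1.

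The BCL2 family changed in both directions. Bcl2l1, which encodes BCL-XL and keeps double-positive cells alive (GRCm38 2:152780668-152831728), was at 28.6, 28.8 and 46.2 CPM in LN3 spleen and 174, 124 and 329.9 CPM in WT thymocytes, a 6.07-fold lower mean (-2.60 ± 0.38, adjusted p = 0.000957). Bcl2l11, the death gene BIM, was at 41.8, 47.6 and 36.2 CPM against 102, 95.3 and 119.8 CPM (-1.33 ± 0.30, adjusted p = 0.0101). Bok, a BAX-like gene, was at 7.41, 6.75 and 3.81 CPM against 0.27, 0.0613 and 0.602 CPM (4.31 ± 0.74, adjusted p = 0.0025), and Bcl2l2, the survival gene BCL-w, at 28.5, 37.9 and 18.7 CPM against 11.1, 8.71 and 11 CPM (1.47 ± 0.33, adjusted p = 0.00963). In each of these 4 genes the groups were apart, but Bcl2l2 lost its call by limma on the variance-stabilized values (adjusted p = 0.203). Bik was at 0 to 0.262 CPM in LN3 spleen and 0.946, 0.736 and 1.81 CPM in WT thymocytes (-3.45 ± 0.78, adjusted p = 0.0102). In all, 4 of 17 tested members rose, Pmaip1 and Bid (0.86 ± 0.28, adjusted p = 0.0473) included, and 4 fell, with Mcl1 as the last (-0.75 ± 0.23, adjusted p = 0.0367). The call ended without LN3 spleen 2 or WT thymocytes 1, 2 or 3 (adjusted p = 0.0734 to 0.104) for Pmaip1, without LN3 spleen 1, 2 or 3 or WT thymocytes 1 or 2 (adjusted p = 0.0537 to 0.181) for Bid and without LN3 spleen 1, 2 or 3 or WT thymocytes 1 or 3 (adjusted p = 0.0529 to 0.11) for Mcl1. The 4 that rose became 2 without LN3 spleen 2, WT thymocytes 1 or WT thymocytes 2.

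Receptor tyrosine kinases and their partners changed in both directions, with 8 of 27 higher and 4 lower and a median log2 difference of 1.29. Pdgfrb, the receptor for platelet-derived growth factor B, was at 302, 489 and 689.7 CPM in LN3 spleen and 5.74, 5.09 and 8.52 CPM in WT thymocytes, a 76.5-fold higher mean (6.26 ± 0.44, adjusted p = 6.59e-06). Ryk, a receptor for Wnt ligands, was at 51.7, 35.3 and 105 CPM against 0.473, 0.613 and 0.774 CPM (6.69 ± 0.59, adjusted p = 3.85e-05). Irs1, the adaptor of the insulin and IGF1 receptors, was at 13.2, 90.7 and 17.1 CPM against 0.27, 0.613 and 0.258 CPM (6.68 ± 0.89, adjusted p = 0.000581). Pdgfrb was at 472, 759.8 and 663 CPM in LN3 thymus and 1.53, 2.78 and 1.55 CPM in WT CD8 cells. Ryk was at 94.9, 81.3 and 42.5 CPM and 2.19, 3.1 and 1.18 CPM there, so for both genes the leukaemia sites were high and the WT cells low. The expression of Irs1 was highest in LN3 spleen 2. Igf1r itself was at 142, 341 and 100.2 CPM against 74.7, 68.5 and 67.1 CPM (1.47 ± 0.39, adjusted p = 0.0202). The lowest leukaemia value lay only a little above the WT values, and the call was lost without LN3 spleen 2 or WT thymocytes 1 or 2 (adjusted p = 0.0597 to 0.0675). Ntrk3, a neurotrophin receptor, was at 7.41, 9.18 and 9.11 CPM against 64.4, 56.9 and 47.8 CPM (-2.71 ± 0.27, adjusted p = 9.43e-05), Ephb6, a kinase-dead ephrin receptor, at 32.4, 19.2 and 17.4 CPM against 212, 174 and 409 CPM (-3.53 ± 0.99, adjusted p = 0.0276), and Tyro3 at 0.61, 0.608 and 0.854 CPM against 3.04, 3.31 and 6.11 CPM (-2.58 ± 0.66, adjusted p = 0.0182). Insr, the insulin receptor, was the fourth that fell (-1.06 ± 0.35, adjusted p = 0.0486), a call lost without LN3 spleen 1 or 3 or WT thymocytes 1 or 2 (adjusted p = 0.107 to 0.172). The 8 became 5 without WT thymocytes 1 or WT thymocytes 2 and under library totals or upper quartiles, and the 4 became 2 without LN3 spleen 1, LN3 spleen 2 or WT thymocytes 1 and 1 without LN3 spleen 3. Ephb6 was lost without LN3 spleen 1, 2 or 3 or WT thymocytes 1 or 3 (adjusted p = 0.0532 to 0.105) and Tyro3 without LN3 spleen 1, 2 or 3 (adjusted p = 0.0518 to 0.0542).

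Of 28 cytokine receptors, 9 fell and 3 rose. Il4ra was at 51.6, 10.2 and 14.7 CPM in LN3 spleen and 216, 129 and 374 CPM in WT thymocytes (-3.24 ± 0.57, adjusted p = 0.003), Il21r at 42.4, 45.2 and 19.8 CPM against 147, 136 and 242 CPM (-2.29 ± 0.34, adjusted p = 0.00115) and the interferon gamma receptor Ifngr1 at 90.8, 66.2 and 78.5 CPM against 276, 214 and 357 CPM (-1.85 ± 0.26, adjusted p = 0.00081). These 3 were lower without overlap. Il9r went the other way, at 67.5, 82.1 and 86.6 CPM against 7.84, 7.24 and 10.5 CPM (3.21 ± 0.36, adjusted p = 0.000209), with Il1r1 (2.08 ± 0.48, adjusted p = 0.0117) and Il15ra (1.21 ± 0.39, adjusted p = 0.0477). Il7r, the survival receptor of early and mature T cells, was at 24.4, 10.1 and 7.69 CPM against 55.5, 74 and 20.6 CPM, with groups that overlapped (-1.84 ± 0.53, adjusted p = 0.03). The calls of Il7r and Il15ra were lost without LN3 spleen 2 or 3 or WT thymocytes 1 or 2 (adjusted p = 0.0875 to 0.119) and without LN3 spleen 2 or 3 or WT thymocytes 1, 2 or 3 (adjusted p = 0.0562 to 0.19). Il1r1 lost its call with the rRNA-like covariate (adjusted p = 0.0582).

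Of 16 tested cytokines 5 rose and 3 fell. Il22 and its near-identical copy Iltifb, whose reads cannot be split with certainty, were at 0 in all WT thymocyte and WT CD8 libraries. Il22 was at 1.13, 1.25 and 13.9 CPM in LN3 spleen, at least 25.3-fold higher than a floor of 3 counts per WT library allows (adjusted p = 0.00985). Iltifb was at 1.83, 2.49 and 19.4 CPM, at least 36.7-fold higher (adjusted p = 0.0052). Il10 was at 0.523, 1.45 and 3.7 CPM, also with no count in WT thymocytes, at least 8.8-fold higher (adjusted p = 0.00671). All 3 were highest in LN3 spleen 3, and without it the lower bounds were 5.53-fold for Il22, 10.1-fold for Iltifb and 4.59-fold for Il10. Tnfsf8 and Tnfsf11, ligands of the TNF family named after their values were seen, rose by 2.11 and 2.03 on the log2 scale (adjusted p = 0.0171 and 0.00683). Tgfb1 was at 65.3, 50.2 and 26.9 CPM against 116, 92 and 203 CPM (-1.53 ± 0.36, adjusted p = 0.0124), and Ltb and Il16 were lower as well (-1.77 ± 0.57 and -1.26 ± 0.35, adjusted p = 0.0447 and 0.0253). Calls were lost without LN3 spleen 3 or WT thymocytes 1 or 2 (adjusted p = 0.0559 to 0.0783) for Tnfsf8, without LN3 spleen 2 or 3 or WT thymocytes 1 or 3 (adjusted p = 0.0755 to 0.149) for Ltb and without LN3 spleen 1 or 3 or WT thymocytes 1 or 3 (adjusted p = 0.0507 to 0.105) for Il16. The number that fell was 1 without LN3 spleen 3, WT thymocytes 1 or WT thymocytes 3.

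Some genes of T-cell receptor signalling and of T-cell identity were lower. Of 29 signalling genes 7 fell and 1 rose. Txk, a Tec-family kinase, was at 18.8, 22.4 and 15.4 CPM in LN3 spleen and 98.6, 108 and 93.9 CPM in WT thymocytes (-2.41 ± 0.25, adjusted p = 0.000117). Cd247, the zeta chain of the receptor complex, was at 109, 94.9 and 106 CPM against 328, 238 and 580.5 CPM (-1.89 ± 0.34, adjusted p = 0.00328). Both fell without overlap between libraries. Cblb, a ligase that damps the receptor, was at 131, 113 and 167 CPM against 61.5, 62.3 and 59.7 CPM (1.16 ± 0.21, adjusted p = 0.00365). The number that fell was 13 with library totals or the rRNA-like covariate and 12 with upper quartiles. Of 28 identity factors 6 fell and 3 rose. Bcl11b, the commitment factor and a T-ALL suppressor, named after its values were seen, was at 252, 314 and 217 CPM against 962, 752 and 917 CPM (-1.75 ± 0.26, adjusted p = 0.00113). Egr2, induced by receptor signals, was at 4.18, 1.65 and 1.71 CPM against 28.9, 19.4 and 42.2 CPM (-3.61 ± 0.59, adjusted p = 0.0018), and Zbtb7b, the CD4-lineage factor ThPOK, at 13.6, 3.94 and 4.95 CPM against 34.7, 31.5 and 71.2 CPM (-2.62 ± 0.59, adjusted p = 0.00985). Higher were Sox13, a factor of early and gamma delta T cells, at 85, 90.5 and 89.8 CPM against 9.12, 7.67 and 19 CPM (2.89 ± 0.36, adjusted p = 0.000385), Lef1, an effector of Wnt signals, at 832, 1107 and 1017 CPM against 337, 317 and 442 CPM (1.43 ± 0.31, adjusted p = 0.00801), and Id2 (1.20 ± 0.38, adjusted p = 0.0407). Id2 was lost without LN3 spleen 2 or 3 or WT thymocytes 1, 2 or 3 (adjusted p = 0.0538 to 0.154), and 12 identity factors fell with library totals and 11 with upper quartiles.

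Of 16 genes of early, CD4-CD8- thymocytes, 6 rose and 1 fell, with a median log2 difference of 1.35. Dtx1, Notch1 and Notch3 were among the 6 and are counted above as well. Gzma, a granzyme present in early thymocytes and NK cells, was at 144, 129.8 and 110.5 CPM in LN3 spleen and 24.1, 22.9 and 41.1 CPM in WT thymocytes (2.12 ± 0.50, adjusted p = 0.0123), and Bcl11a at 30.5, 6.17 and 14.2 CPM against 4.19, 3.74 and 2.58 CPM (2.26 ± 0.62, adjusted p = 0.0254). Bcl11a is also a B-cell gene and was highest in LN3 spleen 1, the library with the most B-cell RNA. The calls of Gzma and Bcl11a were lost without WT thymocytes 1 (adjusted p = 0.0558) and without LN3 spleen 1 or 3 or WT thymocytes 1, 2 or 3 (adjusted p = 0.0514 to 0.101). The number that rose was 3 without LN3 spleen 3 or WT thymocytes 2, or with library totals or the rRNA-like covariate, and 2 without WT thymocytes 1. Of 24 genes of mature T cells, 1 rose and 3 fell. Cd69, a receptor that holds cells in lymphoid organs, was at 13.2, 5.88 and 11.7 CPM against 54, 47.2 and 14.5 CPM (-1.92 ± 0.47, adjusted p = 0.0146), and Cd27 fell (-1.001 ± 0.28, adjusted p = 0.0257), with Il7r as above. Cd69 was lost without WT thymocytes 1 (adjusted p = 0.0668) and Cd27 without LN3 spleen 1 or 3 or WT thymocytes 1 (adjusted p = 0.0644 to 0.105). The number that fell was 8 without LN3 spleen 1, 1 without LN3 spleen 3, 0 without WT thymocytes 1, 9 with library totals and 7 with upper quartiles or the rRNA-like covariate. Against WT CD8 cells of the same organ, 17 of the 24 were lower in LN3 spleen and 0 higher.

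The shares of homing and adhesion genes called lay near the background. Of 25 homing receptors 2 rose and 2 fell. Cxcr6 was at 1.22, 1.71 and 1.2 CPM in LN3 spleen and 7.7, 7.73 and 7.14 CPM in WT thymocytes (-2.43 ± 0.28, adjusted p = 0.000225). Ccr9, which draws cells to thymus and gut, was at 38.7, 99.2 and 244 CPM against 755, 649 and 599.8 CPM (-2.39 ± 0.70, adjusted p = 0.0319). The B-cell follicle receptor Cxcr5 was at 37.7, 8.74 and 3.3 CPM against 3.18, 1.53 and 2.67 CPM (2.75 ± 0.75, adjusted p = 0.0238), again highest in LN3 spleen 1. Of 29 integrin and adhesion genes 4 rose and 2 fell. Itga9 was at 21.3, 83 and 68.7 CPM against 3.31, 2.88 and 3.96 CPM (4.09 ± 0.74, adjusted p = 0.00345) and Itgae, the alpha chain of CD103, at 9.77, 4.69 and 4.16 CPM against 33.6, 41.2 and 71.1 CPM (-2.98 ± 0.45, adjusted p = 0.00116). Icam2 was lower (-1.48 ± 0.36, adjusted p = 0.0138). Vcam1 and Itga2b rose (2.98 ± 0.91 and 1.94 ± 0.58, adjusted p = 0.0367 and 0.0351), and they are genes of macrophages and of platelets. By limma on the variance-stabilized values Itga2b was not called (adjusted p = 0.726). Itgb1, the common beta 1 chain, rose too (0.88 ± 0.26, adjusted p = 0.0356), a call lost without LN3 spleen 2 or 3 or WT thymocytes 1 or 2 (adjusted p = 0.0507 to 0.134). Calls were lost without LN3 spleen 1 or 2 or WT thymocytes 1, 2 or 3 (adjusted p = 0.0506 to 0.0824) for Ccr9, without LN3 spleen 1 or WT thymocytes 1, 2 or 3 (adjusted p = 0.0504 to 0.13) for Cxcr5, without LN3 spleen 2 or 3 (adjusted p = 0.0524 to 0.0605) for Icam2, without LN3 spleen 1, 2 or 3 or WT thymocytes 1, 2 or 3 (adjusted p = 0.052 to 0.119) for Vcam1 and without LN3 spleen 1, 2 or 3 or WT thymocytes 1 or 2 (adjusted p = 0.0509 to 0.125) for Itga2b. The adhesion genes that rose became 2 without LN3 spleen 1 and 1 without any other single library but WT thymocytes 3, and those that fell became 1 without LN3 spleen 2, 7 with library totals and 9 with the rRNA-like covariate. Of the homing receptors that rose, 1 was left without LN3 spleen 1 or any 1 WT library, and of those that fell, 1 without any 1 WT library.

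Enzymes and carriers of amino acid and one-carbon metabolism were higher: 11 of 21 rose and 2 fell, with a median log2 difference of 1.15. Asns, asparagine synthetase, was at 28, 8.05 and 52.6 CPM in LN3 spleen and 0, 0.552 and 0.86 CPM in WT thymocytes (5.99 ± 1.31, adjusted p = 0.00891). Slc1a4, a carrier of small neutral amino acids, was at 4.8, 4.55 and 6.55 CPM against 0.405, 0.675 and 1.2 CPM (2.81 ± 0.49, adjusted p = 0.00293), and Mthfd1, of folate metabolism, at 209, 113 and 258 CPM against 45.6, 46.1 and 81.9 CPM (1.74 ± 0.37, adjusted p = 0.0078). In these 3 genes no libraries overlapped. Slc7a11, the cystine carrier, was at 18.1, 19.8 and 2.68 CPM against 152, 119 and 30.02 CPM (-2.89 ± 0.76, adjusted p = 0.0208), and Slc38a2 was lower (-0.70 ± 0.22, adjusted p = 0.0455). The 11 became 7 without LN3 spleen 1 or with the rRNA-like covariate, 4 without LN3 spleen 3 or WT thymocytes 2 and 3 without WT thymocytes 1. The calls of Slc7a11 and Slc38a2 were lost without LN3 spleen 3 or WT thymocytes 1 or 2 (adjusted p = 0.0547 to 0.0751) and without LN3 spleen 1, 2 or 3 or WT thymocytes 1 or 2 (adjusted p = 0.0839 to 0.188). In glycolysis 3 of 22 rose and 1 fell, near the background. Ldhb was at 54.6, 23.9 and 41.3 CPM against 217, 158 and 391 CPM (-2.68 ± 0.51, adjusted p = 0.0044), and Hk2, Pgam1 and Aldoc rose by 1.82, 1.45 and 1.61 on the log2 scale (adjusted p = 0.0218, 0.0213 and 0.0302). The call of each ended on leaving out 1 library: without LN3 spleen 3 or WT thymocytes 1 or 2 (adjusted p = 0.0667 to 0.0777) for Hk2, without LN3 spleen 3 or WT thymocytes 1 or 2 (adjusted p = 0.0853 to 0.0975) for Pgam1 and without LN3 spleen 1 or 2 or WT thymocytes 1 or 2 (adjusted p = 0.0673 to 0.103) for Aldoc. Of the 3, 1 was left without LN3 spleen 3, and 10 genes of the list rose without WT thymocytes 3.

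Interferon-induced genes were lower: 9 of 24 fell and 1 rose, with a median log2 difference of -0.86. Ifit1 was at 3.84, 2.37 and 3.19 CPM in LN3 spleen and 11.3, 18.6 and 19.5 CPM in WT thymocytes (-2.40 ± 0.50, adjusted p = 0.00699), Zbp1, a sensor of nucleic acids, at 19.8, 11.2 and 9.34 CPM against 43.4, 41.4 and 77.5 CPM (-2.02 ± 0.38, adjusted p = 0.00415), and Ifi27l2a at 6.02, 1.3 and 0.683 CPM against 11.9, 9.88 and 43.7 CPM (-3.08 ± 0.78, adjusted p = 0.0178). Each was lower in all 3 leukaemia libraries. Rsad2, the antiviral enzyme viperin, was the exception, at 11.4, 37.8 and 67.5 CPM against 7.7, 7.73 and 7.23 CPM (2.37 ± 0.65, adjusted p = 0.0243). Rsad2 was lost without LN3 spleen 3 or WT thymocytes 1, 2 or 3 (adjusted p = 0.0541 to 0.116) and Ifi27l2a without LN3 spleen 2 or 3 or WT thymocytes 3 (adjusted p = 0.0576 to 0.0633). The 9 became 5 without LN3 spleen 2 and 4 without LN3 spleen 3. In the class I list 2 of 16 rose and 1 fell, near the background, with B2m at 473, 503 and 472 CPM against 214, 208 and 259.9 CPM (1.09 ± 0.29, adjusted p = 0.0234), Erap1 at 0.998 ± 0.31 and H2-T23 at -1.07 ± 0.29 in log2 (adjusted p = 0.0394 and 0.0228). These calls were lost without LN3 spleen 1 or 3 or WT thymocytes 1 or 2 (adjusted p = 0.0503 to 0.0883), without LN3 spleen 2 or 3 or WT thymocytes 1, 2 or 3 (adjusted p = 0.0546 to 0.117) and without LN3 spleen 2 or 3 (adjusted p = 0.0676 to 0.0919) in that order.

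Of 25 epigenetic regulators 3 rose and 5 fell. The demethylase Kdm6b was at 87.4, 125 and 65.3 CPM in LN3 spleen and 390.3, 292 and 468 CPM in WT thymocytes (-2.05 ± 0.32, adjusted p = 0.00144), and the polycomb gene Cbx8 was lower (-1.55 ± 0.35, adjusted p = 0.00985). Bmi1, also of polycomb, was at 76.2, 135 and 109 CPM against 37.8, 41.1 and 9.55 CPM (1.85 ± 0.44, adjusted p = 0.0124), while Tet3 and Hdac7 were lower (-1.07 ± 0.27 and -0.91 ± 0.29, adjusted p = 0.0177 and 0.0423). Dnmt3b and Phf6 were higher (1.45 ± 0.40 and 1.23 ± 0.34, adjusted p = 0.0249 and 0.0269). Calls were lost without LN3 spleen 1 or 3 or WT thymocytes 1 (adjusted p = 0.0608 to 0.078) for Tet3, without LN3 spleen 1, 2 or 3 or WT thymocytes 1 or 3 (adjusted p = 0.053 to 0.153) for Hdac7, without LN3 spleen 3 or WT thymocytes 1 or 2 (adjusted p = 0.0911 to 0.124) for Dnmt3b and without LN3 spleen 3 (adjusted p = 0.106) for Phf6. The number that rose was 1 without LN3 spleen 3, and the number that fell was 3 without LN3 spleen 1 or WT thymocytes 1 and 2 without LN3 spleen 3. Of 18 cytotoxic genes 2 rose and 1 fell, near the background. These were Gzma as above, Gzmk (4.99 ± 1.30, adjusted p = 0.0199) and, lower, Ctsw, a protease of killer cells, at 10.9, 4.72 and 2.79 CPM against 29.3, 26.1 and 57.7 CPM (-2.64 ± 0.53, adjusted p = 0.00594). The call of Gzmk was lost without LN3 spleen 2 or WT thymocytes 1 (adjusted p = 0.076 to 0.0824), and 2 of the list fell without LN3 spleen 1. Among 17 checkpoint genes 1 rose and 1 fell, also near the background: Cd160 and Tnfrsf18 (1.92 ± 0.51 and -1.44 ± 0.45, adjusted p = 0.0224 and 0.0424). Their calls were lost without LN3 spleen 3 or WT thymocytes 1 or 2 (adjusted p = 0.0658 to 0.122) and without LN3 spleen 1, 2 or 3 or WT thymocytes 1 or 3 (adjusted p = 0.0676 to 0.151).

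Genes of blood progenitors and partners of LMO2 rose together with genes of red-cell precursors. Of 21 progenitor genes 7 rose and 2 fell, with a median log2 difference of 1.25. In WT CD8 cells 10 of the 21 were higher and 1 lower than in WT thymocytes, with a median of 2.14. Of all 20897 genes, 1513 were higher and 1774 lower there. Against WT CD8 cells 0 of the 21 were higher in LN3 spleen and 1 lower, where 17.9% of all genes were higher and 13% lower. Tal1, a bHLH factor of stem cells and red-cell precursors (GRCm38 4:115056426-115071755), was at 44.5, 13.7 and 64.6 CPM in LN3 spleen and 0.203, 0.184 and 0.344 CPM in WT thymocytes (7.39 ± 0.94, adjusted p = 0.000443). Lmo2, the adaptor that joins TAL1 to GATA factors (GRCm38 2:103957986-103981878), was at 40.6, 27.8 and 42.1 CPM against 2.1, 0.797 and 2.84 CPM, a 19.3-fold higher mean (4.28 ± 0.94, adjusted p = 0.00917). Gata2 was at 6.71, 1.39 and 1.42 CPM against 0.0676, 0 and 0.172 CPM (5.33 ± 1.02, adjusted p = 0.00435), a count ratio of 33.6 (95% counting interval 11.3 to 165). All 3 genes were higher in every LN3 spleen library than in any WT thymocyte library. In WT CD8 cells Tal1 was at 4.92, 26.4 and 3.9 CPM, Lmo2 at 15.6, 30.9 and 5.85 CPM and Gata2 at 12.6, 10.2 and 6 CPM. LN3 spleen was not called different from WT CD8 cells for any of them (adjusted p = 0.0619, 0.318 and 0.109). Lyl1, a relative of Tal1, was at 29.3, 6.83 and 13.7 CPM against 2.5, 1.9 and 4.82 CPM (2.44 ± 0.71, adjusted p = 0.0312). Nfe2, an erythroid and platelet factor, and Mef2c, a factor of B and myeloid cells, rose by 3.002 and 3.08 on the log2 scale (adjusted p = 0.00848 and 0.0107), and both were named after their values were seen. Mef2c lost its call with the rRNA-like covariate (adjusted p = 0.0729) and by limma on the variance-stabilized values (adjusted p = 0.0781). Of the E-protein and LMO list 5 of 12 rose and 0 fell: Tal1, Lmo2, Lyl1, Id2 and Lmo4 (1.40 ± 0.43, adjusted p = 0.04). Hoxa7 and Hoxa5, expressed at low levels, fell (-3.95 ± 0.68 and -2.85 ± 0.79, adjusted p = 0.00258 and 0.0254), and Hoxd13 was at 0 counts throughout all 12 libraries. Nup98, a nuclear pore gene, did not pass the test, at 159, 175 and 169.7 CPM against 128, 122 and 149 CPM (adjusted p = 0.222). Calls were lost without LN3 spleen 1 or 3 or WT thymocytes 1 or 2 (adjusted p = 0.0621 to 0.114) for Lyl1, without LN3 spleen 3 or WT thymocytes 1 or 2 (adjusted p = 0.129 to 0.232) for Lmo4 and without LN3 spleen 1 or 3 or WT thymocytes 1 or 2 (adjusted p = 0.0519 to 0.0662) for Hoxa5. With the rRNA-like covariate 4 progenitor genes rose, and 2 genes of the E-protein list were left with it or without LN3 spleen 3, WT thymocytes 1 or WT thymocytes 2.

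The erythroid markers moved in the same libraries. Of 16 tested, 11 rose and 0 fell, with a median log2 difference of 4.35. Their summed level was 6943, 2575 and 8645 CPM in LN3 spleen 1, 2 and 3 and 112.9 to 4034 CPM in WT thymocytes. Tal1 and Lmo2 ranked the LN3 spleen libraries in the same order, while Gata2 and Lyl1 were highest in LN3 spleen 1. No erythroid marker that was tested was at 0 in either group. Car1, a red-cell carbonic anhydrase, was at 139.8, 34.9 and 341 CPM in LN3 spleen and had 1 count in all of the WT thymocyte libraries, a count ratio of 5910 (95% counting interval 1060 to 234000) and an adjusted p of 0.000156. Slc4a1, the band 3 anion exchanger, was at 389, 301 and 1046 CPM against 4.05, 0.123 and 1.63 CPM (8.22 ± 1.65, adjusted p = 0.00656). Klf1, an erythroid transcription factor, rose by 7.12 on the log2 scale (adjusted p = 0.000957). The haemoglobin genes, which mark mature red cells too, were also high in 2 WT thymocyte libraries and did not pass: Hbb-bs was at 1808, 611 and 2139 CPM against 1416, 4.17 and 527 CPM (1.23 ± 1.52, adjusted p = 0.578), with Hba-a1 and Hba-a2 at 1.46 and 0.64 in log2. The precursor genes and the haemoglobin genes thus differed in how they set the groups apart. In LN3 thymus Tal1 was at 0.126, 0.0827 and 0.113 CPM, Car1 at 0.168, 0.0827 and 0.0845 CPM and Lmo2 at 1.22, 0.91 and 11.2 CPM. The part of red-cell precursors in the rise of Tal1, Gata2, Lyl1 and Lmo2 was not tested.

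Markers of some other spleen cells were higher too. Those of B cells were high mainly in LN3 spleen 1, while myeloid and platelet sums were above WT thymocytes in all 3 LN3 spleen libraries. In WT CD8 cells the sums were 2042, 1766 and 570 CPM for B-cell, 1677, 3901 and 283 CPM for myeloid and 119, 29.1 and 25.5 CPM for platelet markers. Against WT CD8 cells 0 members of these lists were higher in LN3 spleen and 1, a myeloid marker, was lower (17.9% and 13% of all genes). B-cell markers rose in 7 of 15, with a summed level of 3557, 667 and 368 CPM in LN3 spleen 1, 2 and 3 and 392.5 to 645 CPM in WT thymocytes. Ighd, of naive B cells, was at 167, 17.6 and 23.3 CPM against 3.92, 3.25 and 3.61 CPM (4.27 ± 0.80, adjusted p = 0.00409), Jchain, of plasma cells, at 1113, 97.6 and 44.8 CPM against 19.8, 11.9 and 12 CPM (4.84 ± 1.49, adjusted p = 0.0412) and Ighm at 1543, 421 and 208 CPM against 390.5, 314 and 532 CPM (0.81 ± 0.58, adjusted p = 0.326). LN3 spleen 1 was the highest library for each. Without it 2 B-cell markers rose, Jchain was not called (adjusted p = 0.192) and Ighm turned to -0.38. Myeloid markers rose in 7 of 21, with sums of 2897, 599.9 and 764.5 CPM in LN3 spleen and 128 to 352 CPM in WT thymocytes, and Elane, of neutrophil precursors, was at 50.7, 5.94 and 3.87 CPM against 0.0676, 0.245 and 1.03 CPM (5.54 ± 1.62, adjusted p = 0.0318). S100a9, of neutrophils, was at 409.6, 50.8 and 105 CPM against 1.22, 3.99 and 12.3 CPM (adjusted p = 0.018), and its partner S100a8 at 354, 47.8 and 103 CPM against 0.54, 4.17 and 12.8 CPM (adjusted p = 0.0317), while Ngp missed the threshold (adjusted p = 0.0553). Without LN3 spleen 1 the number of myeloid markers was 2, and without WT thymocytes 1 or 2 it was 1. The number of B-cell markers was 2 without WT thymocytes 1 or 2 and 3 without WT thymocytes 3. Calls were lost without LN3 spleen 1 or WT thymocytes 1 or 2 (adjusted p = 0.107 to 0.119) for Elane, without WT thymocytes 1 or 2 (adjusted p = 0.0708 to 0.0722) for S100a9, without LN3 spleen 1 or 3 or WT thymocytes 1 or 2 (adjusted p = 0.0508 to 0.105) for S100a8 and without LN3 spleen 1 or WT thymocytes 1, 2 or 3 (adjusted p = 0.102 to 0.192) for Jchain.

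Platelet markers rose in 4 of 9 (summed level 31 to 48 CPM in LN3 spleen and 8.83 to 11.3 CPM in WT thymocytes), namely Itga2b, Gp9 (3.49 ± 0.99, adjusted p = 0.0279), Tubb1 (4.08 ± 0.96, adjusted p = 0.0125) and Ppbp, which was at 5.49, 4.2 and 3.47 CPM against 0.338, 0.0613 and 0.344 CPM (4.15 ± 1.07, adjusted p = 0.0186). Gp9 lost its call without LN3 spleen 3 or WT thymocytes 2 or 3 (adjusted p = 0.052 to 0.0904) and Tubb1 without WT thymocytes 1 or 2 (adjusted p = 0.0503 to 0.0581). Their number was 2 without LN3 spleen 3, 1 without WT thymocytes 1 and 0 without WT thymocytes 2 or with the rRNA-like covariate. Vwf and Gp1ba did not pass (adjusted p = 0.0717 and 0.181). The dendritic-cell sums were 1783, 530 and 307 CPM in LN3 spleen and 219.9 to 626 CPM in WT thymocytes, where 0 of 15 rose and Ccl22, a chemokine of thymic dendritic cells, fell from 6.96, 4.11 and 15.7 to 1.31, 0.145 and 0.228 CPM (-4.11 ± 0.91, adjusted p = 0.0095), with 2 that fell without LN3 spleen 1. Cd74, H2-Aa and H2-Ab1, of antigen-presenting cells, did not pass (adjusted p = 0.216, 0.243 and 0.394). Among 12 NK-cell genes Gzma alone rose, while Tyrobp and Fcer1g did not pass (adjusted p = 0.266 and 0.082). NK sums were 220.2, 155 and 137 CPM in LN3 spleen 1, 2 and 3 and 41.6 to 74 CPM in WT thymocytes. Gzma alone gave 144, 129.8 and 110.5 CPM of those in LN3 spleen. In the stroma list, with sums of 133 to 379.9 CPM against 127 to 259 CPM, Col1a2 was at 1.22, 249 and 143 CPM against 1.01, 0.184 and 3.44 CPM, so that LN3 spleen 1 lay inside the WT range (6.46 ± 1.69, adjusted p = 0.0222). Col3a1, the partner collagen of stromal cells, was at 0, 0.232 and 0.171 CPM against 2.03, 0.184 and 7.57 CPM (-4.34 ± 1.36, adjusted p = 0.0413), the opposite direction. Psmb11, of the cortical epithelium of the thymus, fell as well (-1.93 ± 0.47, adjusted p = 0.0143), a call lost without WT thymocytes 1 (adjusted p = 0.0538), and 0 to 4 of the list fell when 1 library was left out (0 without WT thymocytes 1, 1 without LN3 spleen 3 or WT thymocytes 3, 4 without WT thymocytes 2). Pecam1 and Sparc did not pass (adjusted p = 0.263 and 0.505), and Krt5 of the epithelium had no count in LN3 spleen. Ppbp, Col1a2 and Col3a1 were lost without WT thymocytes 1 or 2 (adjusted p = 0.0581 to 0.0682), without WT thymocytes 1 or 2 (adjusted p = 0.0743 to 0.095) and without LN3 spleen 1, 2 or 3 or WT thymocytes 1 or 3 (adjusted p = 0.0703 to 0.138). Elane, Ppbp, Gp9, Tubb1, Ccl22, Col3a1, Psmb11 and Klf1 were named after their values were seen. The part of these cells in the T-cell results was not tested.

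**Figure D4:**
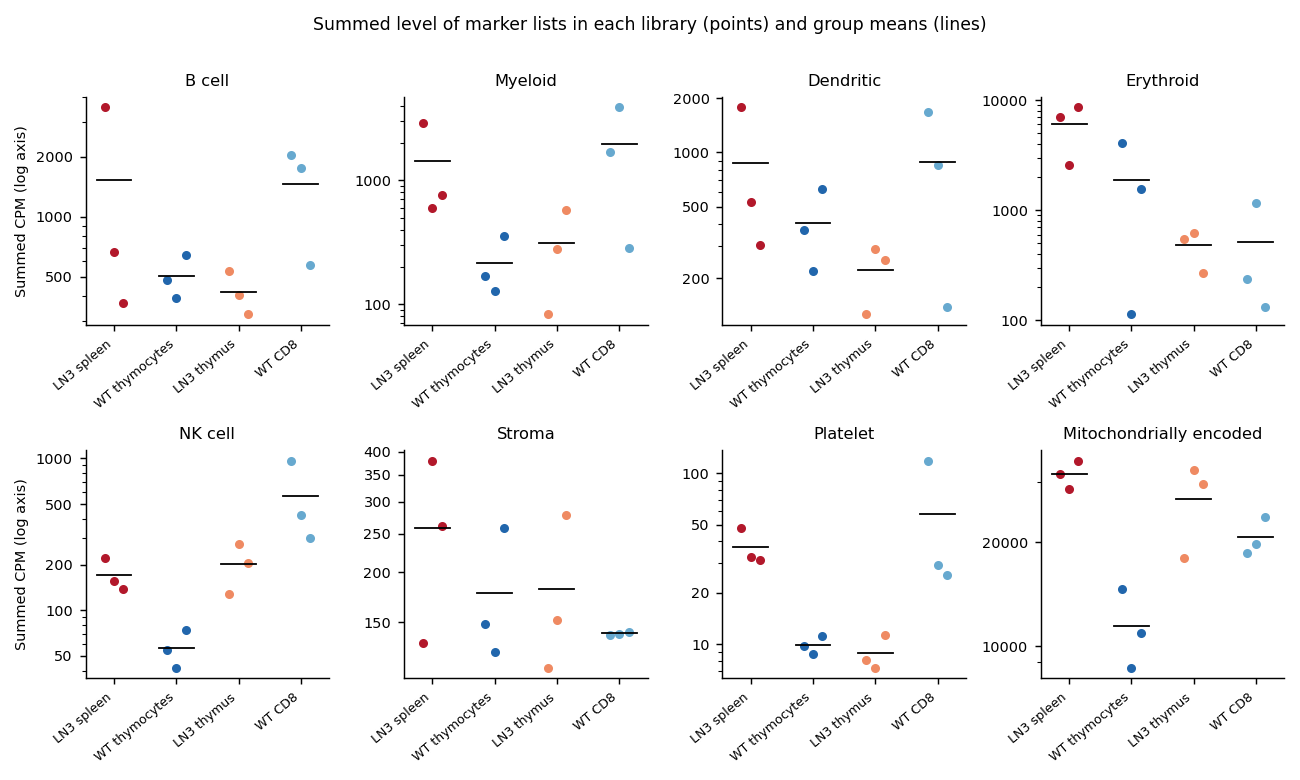
Each panel shows the summed CPM of 1 marker list on a log axis, with 1 point per library and a line at the group mean. LN3 spleen 1 is the highest LN3 spleen library for B-cell (3557 CPM), myeloid (2897 CPM) and dendritic markers (1783 CPM), and the 3 LN3 spleen libraries lie above the 3 WT thymocyte libraries for myeloid, NK, platelet and mitochondrially encoded genes. Gzma, present in early thymocytes too, alone gave 144, 129.8 and 110.5 CPM of the NK sums of LN3 spleen 1, 2 and 3 (220.2, 155 and 137 CPM).

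The largest single rises mixed genes shared with LN3 thymus and genes found in spleen. Among the 12 largest, Lmcd1, a LIM-domain co-regulator, was at 136, 144 and 154 CPM in LN3 spleen and 0.0676, 0.0613 and 0.344 CPM in WT thymocytes (9.93 ± 0.76, adjusted p = 1.23e-05). Sall3, a zinc-finger factor of development, was at 25.9, 132 and 100.4 CPM against 0.0676, 0 and 0.258 CPM (9.74 ± 0.88, adjusted p = 4.51e-05), and Filip1, a filamin-binding protein, at 18.9, 31.8 and 7.12 CPM against 0.0676, 0.0613 and 0 CPM, a count ratio of 484 (95% counting interval 134 to 4000), with an adjusted p of 9.43e-05. In LN3 thymus Lmcd1 was at 58, 152 and 73.2 CPM, Sall3 at 70.8, 98.4 and 113 CPM and Filip1 at 15.7, 21 and 26.9 CPM, so these 3 were high at both sites. Vgll1, a partner of TEAD factors, had no count in WT thymocytes and was at 137, 108 and 6.43 CPM in LN3 spleen, at least 390-fold higher (adjusted p = 0.00892), with LN3 spleen 3 far below the others. Cldn13, Cym and Apol8 had no count in WT thymocytes either and were at least 130-fold, 84.5-fold and 67.4-fold higher (adjusted p = 0.00485, 0.00731 and 0.00446). Without LN3 spleen 3 these bounds were 81.1-fold, 31.8-fold and 37.1-fold. Add2, of the red-cell membrane skeleton, Sox6, a factor of red-cell precursors, Ypel4 and Ces2g completed the list with Car1 (adjusted p = 0.00147, 0.00592, 0.00116 and 0.000908). The count ratio was 644 (95% counting interval 220 to 3120) for Add2, 446 (95% counting interval 123 to 3680) for Sox6 and 769 (95% counting interval 138 to 30400) for Ypel4, and Ces2g was at 38.2, 17.1 and 101 CPM against 0, 0.0613 and 0.344 CPM. All 12 genes had between 0 and 6 counts over the WT thymocyte libraries, so the fitted log2 differences depend on the prior count used.

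Among the genes of largest fall, BB031773, a transcript without a described product, was at 0, 0.029 and 0 CPM in LN3 spleen and 53, 49 and 37.6 CPM in WT thymocytes, with 1 count in all of LN3 spleen. The count ratio of WT thymocytes over LN3 spleen was 3010 (95% counting interval 539 to 119000), with an adjusted p of 3.49e-06. Chrna9, a nicotinic receptor subunit, was at 0.523, 0.811 and 0.968 CPM against 87, 89.6 and 82.1 CPM (-6.78 ± 0.57, adjusted p = 2.75e-05), and Adam12, a metalloprotease, at 1.13, 1.16 and 1.08 CPM against 71.8, 49.3 and 79 CPM (-5.88 ± 0.63, adjusted p = 0.000149). In all 3 the lowest WT library lay far above the highest leukaemia library. Slc6a19, a carrier of neutral amino acids, was at 2.79, 1.1 and 1.2 CPM against 78.7, 78.3 and 146 CPM (-5.95 ± 0.65, adjusted p = 0.000173), and Cfap74, a cilium gene, at 1.31, 1.65 and 0.797 CPM against 52.2, 69.9 and 52.3 CPM (-5.51 ± 0.58, adjusted p = 0.000134). Smoc1, BC065403, Plxdc2, Tctex1d1 and Gpc2 had log2 differences of -8.46, -6.84, -6.64, -6.64 and -5.53 (adjusted p = 0.0115, 0.000311, 0.00333, 0.000588 and 0.00147), and Cd4 was also among them. None of these 11 calls was lost when any 1 library was left out.

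**Figure D5:**
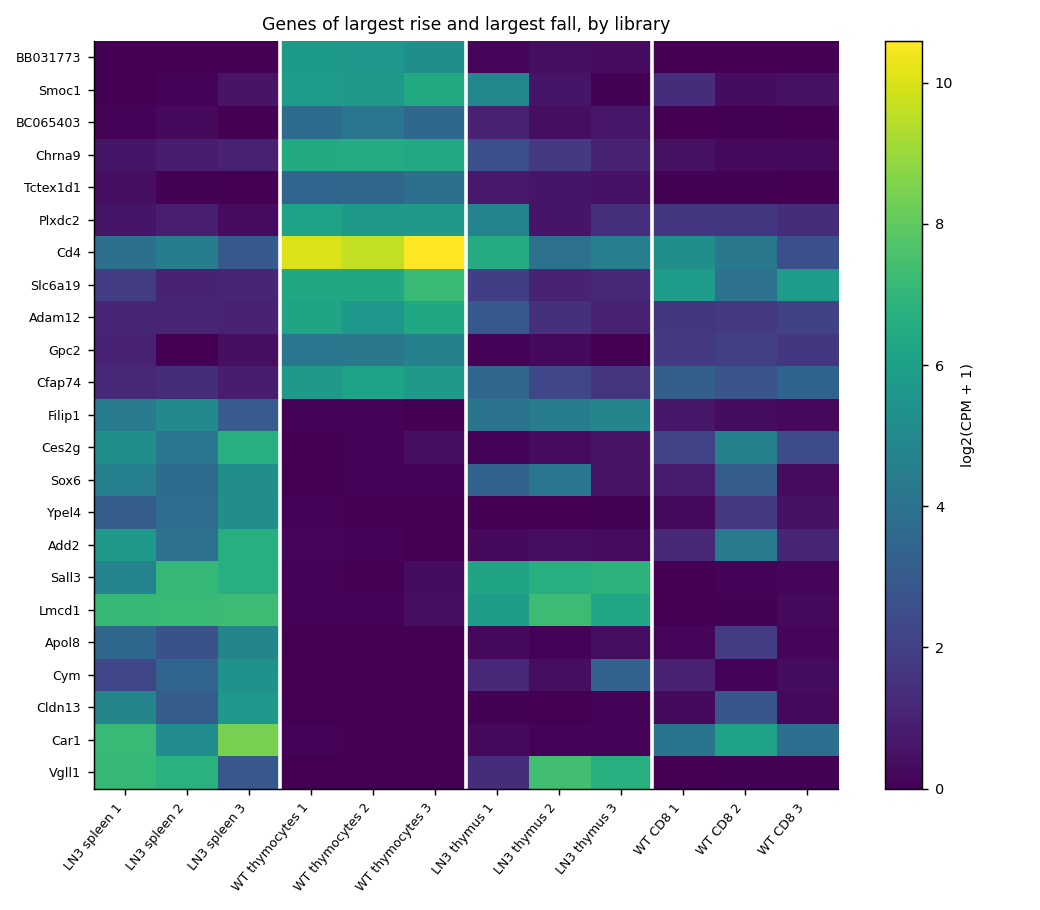
The heat map shows log2(CPM + 1) of 11 genes of largest fall (upper rows) and the 12 of largest rise (lower rows) in 12 libraries, with white lines between groups. Each falling gene is brightest in WT thymocytes, while Slc6a19 is also bright in WT CD8 cells and Smoc1 and Plxdc2 in LN3 thymus 1. Lmcd1, Sall3 and Filip1 are bright in LN3 thymus as in LN3 spleen, while Car1, Add2, Ces2g and Ypel4 are dark there.

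Few genes separated LN3 spleen from LN3 thymus in the same fit. Of all genes, 145 were higher in LN3 spleen than in LN3 thymus and 6 lower, 0.694% and 0.0287%. This is also the test of whether the difference from WT thymocytes was the same for both leukaemia sites. In the double-positive, Notch target, ribosome biogenesis, replication and TCR signalling lists 0 members passed it in either direction. Of the erythroid markers 8 of 16 were higher in spleen, and of the progenitor genes 6 of 21. For the genes that lead the comparison both sites stood side by side: Notch1 was at 2267, 2798 and 1950 CPM, Myc at 245, 403 and 267 CPM, Cd4 at 90.8, 15.1 and 22.4 CPM and Bcl2l1 at 34.3, 29.4 and 18 CPM in LN3 thymus (log2 differences of spleen from thymus -0.24 ± 0.37, 0.10 ± 0.29, -1.62 ± 0.74 and 0.34 ± 0.36; adjusted p = 0.911, 0.952, 0.564 and 0.862). A p that misses the threshold does not show that the sites were equal. The labels number spleen and thymus leukaemias alike without saying that a number is a mouse, and Xist was at 4025 CPM in LN3 spleen 2 and 3.89 CPM in LN3 thymus 2. LN3 spleen 2 and LN3 thymus 3 were alike in Xist (3982 CPM in the latter) and in their leading receptor alpha segment, Trav7d-5, with 34.1% and 33.7% of Trav counts. Whether libraries of both sites came from 1 mouse is not given, and the fit treats all 12 as independent.

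Mitochondrially encoded genes, read as a sign of RNA quality, were as a sum lowest in WT thymocytes of the 4 groups. Against WT CD8 cells, 1 of 13 was higher in LN3 spleen and 1 lower. Genes read as signs of handling lay near the background. All but 1 of 13 mitochondrially encoded genes rose (12 of 13, median log2 difference 1.76), with mt-Nd1 at 3346, 2634 and 4523 CPM in LN3 spleen and 801, 408 and 827 CPM in WT thymocytes (2.37 ± 0.40, adjusted p = 0.00212), and mt-Nd6 and mt-Atp8 by 2.19 and 2.75 in log2 (adjusted p = 0.00243 and 0.033). The number was 7 without WT thymocytes 2, and mt-Atp8 was lost without LN3 spleen 1 or 3 or WT thymocytes 1, 2 or 3 (adjusted p = 0.0599 to 0.0953). Of 16 immediate early and heat shock genes 2 rose and 2 fell, against 11.3% and 8.52% of all genes. Their summed level overlapped, at 1444 to 2383 CPM in LN3 spleen and 1714 to 3287 CPM in WT thymocytes. Jun was at 42, 23.9 and 6.72 CPM against 5, 3.01 and 8.77 CPM (2.12 ± 0.55, adjusted p = 0.0201) and Jund at 91, 25.3 and 32.6 CPM against 231, 129 and 465 CPM (-2.47 ± 0.56, adjusted p = 0.0104), opposite directions within 1 family, with Ier3 higher and Egr1 lower (2.80 ± 0.69 and -0.97 ± 0.28, adjusted p = 0.0159 and 0.0283). Leaving out 1 library ended the call of Jun without LN3 spleen 1 or WT thymocytes 1 or 2 (adjusted p = 0.0785 to 0.0808), of Jund without LN3 spleen 3 (adjusted p = 0.0517), of Ier3 without LN3 spleen 3 or WT thymocytes 1 or 2 (adjusted p = 0.0639 to 0.0718) and of Egr1 without LN3 spleen 1, 2 or 3 or WT thymocytes 1 or 3 (adjusted p = 0.059 to 0.0946).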

How the data were processed

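RNA was measured by poly(A)-selected RNA sequencing (NEBNext Ultra II Directional kit, per the labels) in 12 libraries, 6 of them in the comparison. The deposited gene table holds estimated counts from kallisto 0.46.1 on GRCm38, per the submitters' processing notes. The strand setting is not given in the sources used here, so a gene and its antisense partner, or near-identical copies, may share counts. The authors also deposited variance-stabilized values on a log2 scale, used as an alternative only.

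Counts, whole numbers as deposited, were rounded (100% were already whole) and tested with edgeR 4.0.16 (R 4.3.3) after filterByExpr, with TMM factors and a quasi-likelihood fit with 1 mean for each group, all 12 libraries and no covariate, which leaves 8 residual degrees of freedom. The contrast was LN3 spleen minus WT thymocytes, and p-values were adjusted by Benjamini-Hochberg over 20897 genes with a threshold of 0.05. SE is the log2 difference over the square root of F. Positions are from GENCODE and promoters from RefSeq, build GRCm38.p6. Scripts were checked on data with known answers.

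The members and the 37 gene lists were chosen with earlier results of these data known. Named were 14 anchors, up to 3 called members higher and 3 lower of each programme list, the 12 largest rises and 12 largest falls (mean CPM of at least 10, no overlap, no receptor segments, predicted genes or multi-copy families), the 6 largest rises also above LN3 thymus, the 3 most abundant genes of each list of other cells, and genes that the text marks as named after their values were seen. Some genes that this rule names, or that complete a count, are not reported here. The fewer-than-6 members of a list that are given to complete a count (Rbl1, E2f2, Bid, Mcl1, Insr, Itgb1, Tet3, Hdac7, Lmo4, Wdr43, Mybbp1a, Utp20, Nop2) were also added after. Library depth was 12694571 to 35852952 counts, and 3 counts corresponded to 0.0869 to 0.262 CPM in the 6 libraries. Intervals cover counting error only. Alternatives were other scalings (library totals, upper quartiles, RLE), filters, DESeq2 1.42.0, limma 3.58.1, a fit of 6 libraries, the replicate block and each library left out, and, added after seeing the data, the rRNA-like covariate (log2 share of CT010467.1, Mir6236, Lars2, Gm26917 and AA474408) and WT thymocytes 1 and 2 left out.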

Additional observations from a re-analysis of the deposited data

Results flagged for a closer look

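For 16 named genes the difference from WT thymocytes was not the same at both leukaemia sites. The test was edgeR's direct contrast of LN3 spleen with LN3 thymus, since the shared WT thymocytes cancel, with adjustment over all 20897 genes. All 16 were higher in spleen, in a contrast where 145 genes in all were higher and 6 lower. The 6 largest rises also above LN3 thymus had been named because this contrast called them higher. Klf1, Nfe2, Ppbp and Tubb1 were named after their values were seen, so the number and the shared direction are partly set by the choice.

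Among the red-cell genes and the genes of largest rise, the log2 differences of spleen from thymus were Slc4a1 10.33 (adjusted p = 0.0333), Car1 10.50 (adjusted p = 0.00624), Klf1 4.37 (adjusted p = 0.0376) and Add2 7.80 (adjusted p = 0.0243). For the other genes of largest rise they were Ypel4 9.18 (adjusted p = 0.0142), Cldn13 8.90 (adjusted p = 0.0414) and Ces2g 7.49 (adjusted p = 0.0151). Car1 was at 139.8, 34.9 and 341 CPM in LN3 spleen and 0.168, 0.0827 and 0.0845 CPM in LN3 thymus.

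Among the progenitor factors they were Tal1 8.46 (adjusted p = 0.00624), Gata2 6.45 (adjusted p = 0.0248), Nfe2 4.44 (adjusted p = 0.0169), Lyl1 3.76 (adjusted p = 0.0411) and Bcl11a 4.65 (adjusted p = 0.0151). Tal1 was at 44.5, 13.7 and 64.6 CPM in LN3 spleen and 0.126, 0.0827 and 0.113 CPM in LN3 thymus, without overlap.

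The platelet genes had differences of Ppbp 7.05 (adjusted p = 0.0342), Tubb1 5.18 (adjusted p = 0.0369) and Itga2b 3.37 (adjusted p = 0.0342). The interferon-induced gene Rsad2 differed by 3.50 (adjusted p = 0.0363), at 11.4, 37.8 and 67.5 CPM in LN3 spleen and 2.14, 4.3 and 3.91 CPM in LN3 thymus. The summed erythroid markers, 2575 to 8645 CPM in LN3 spleen, were 270.1 to 622 CPM in LN3 thymus, and their part in these differences was not tested.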

How the results depend on the processing

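The numbers of genes higher and lower moved most with the libraries used: leaving out 1 library gave 1020 to 3184 higher (2365 with all) and 796 to 2634 lower (1781 with all). Scaling by library totals gave 1467 higher and 2918 lower, upper quartiles 1755 and 2760, the fit of 6 libraries alone 1392 and 1014, and the rRNA-like covariate, chosen after seeing the data, 1558 higher. The replicate block gave 1667 higher and 1181 lower. Deviations of same-numbered libraries had r = -0.14, 0.39 and 0.02, and those of unlike numbers -0.39 to 0.33. With 3 libraries a group, such values cannot decide whether the numbers pair the libraries. Of 172 named calls the block ended 35, the rRNA-like covariate 45, the fit of 6 libraries 33 and library totals 26. The losses given gene by gene are mainly those from leaving out 1 library. RLE factors, both filters, DESeq2 and limma kept both counts within 1.5 times, as did leaving out WT thymocytes 1 and 2 together (1871 and 1278). That setting has 1 WT library, assumed to vary like the other groups, and only 755 and 917 of its genes were among those called with all. Of 172 named calls it ended 75, Notch1 (adjusted p = 0.0511), Lmo2 (0.16), Lef1 (0.1) and Asns (0.136) among them. Over 192 named genes and all alternatives, 2708 of 3257 values kept their direction and side of the threshold, 527 lost the call, 12 gained it and 10 turned, none of them called; 72 of 172 called genes held in every alternative. Those that turned were Ighm (-0.38, against 1.25 at the highest with 1 library left out) and H2-Ab1 (-0.13, against 1.61) without LN3 spleen 1, Il2ra (-0.26, against 1.99) and Nrarp (-0.42, against 2.22) without LN3 spleen 3, with the covariate Hbb-bs (-0.0685), Hba-a1 (-0.12), Hba-a2 (-0.97), Tyrobp (-0.0727) and Sparc (-0.37), and Sparc (-0.22) without WT thymocytes 1 and 2. The cause was not tested. As shares of library counts, marker sums were 0.0301 to 0.284% in LN3 spleen and 0.0504 to 0.0555% in WT thymocytes for B cells, 0.0578 to 0.232% and 0.0164 to 0.0301% for myeloid cells and 0.248 to 0.708% and 0.0145 to 0.466% for red cells. With 3 libraries a group, depth limits mainly genes near 3 counts per library, 0.0869 to 0.262 CPM.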

Other observations

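The use of T-cell receptor beta V segments was narrow in the leukaemia libraries. These counts were examined after other values were seen. Of all counts on 35 Trbv segments, Trbv5 took 81.1% (95% exact binomial interval 79.5 to 82.6), 90.3% (89.6 to 91) and 95.9% (95.3 to 96.5) in LN3 spleen 1, 2 and 3. In WT thymocytes it took 4.06%, 3.47% and 3.96%, and in WT CD8 cells 1.94%, 2.52% and 2.36%. In LN3 thymus it took 65.6%, 78.7% and 88.5%. The segments above 1% numbered 6, 3 and 2 in LN3 spleen 1, 2 and 3 and 19 in each WT thymocyte library, where Trbv13-2 was highest at 11.8 to 14.2%. V segments resemble each other, and the counting may split their reads. The intervals cover counting error only, and the labels do not say whether any transgene supplies a receptor chain.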
